A study of Mus musculus with 2 samples.

Results

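The genes described here are 6 matrix metalloproteinases, Mmp2, Mmp3, Mmp8, Mmp9, Mmp13 and Mmp14, and 3 of their tissue inhibitors, Timp1, Timp2 and Timp3. They were taken by symbol from the gene list of a single-cell RNA sequencing study of mouse periodontal ligament, and all 9 were found among its 32285 genes. The periodontal ligament is the connective tissue that joins the tooth root to the alveolar bone. The study compared 2 libraries from male C57BL/6J mice aged 8 weeks. In the orthodontic tooth movement (OTM) library the upper left first molar had been moved forward with a force of 10 g for 6 days, and the control library came from the unloaded right side. Tissue clinging to the pulled roots and lining the sockets of 5 mice was pooled for each library, broken up by collagenase followed by trypsin, and profiled on the 10x Genomics platform with version 3.1 of its 3' chemistry. A library is thus 1 pool of animals per group. No spread between animals could be measured, no test was run, and every interval below covers counting error only.

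Matrix metalloproteinases are zinc-dependent enzymes, made as inactive precursors, that cut collagens and other proteins of the extracellular matrix. Mmp13 and Mmp8 are collagenases that can cleave the intact triple helix of fibrillar collagen. Mmp2 and Mmp9 are gelatinases that digest denatured collagen, Mmp3 is a stromelysin that also activates other precursors, and Mmp14 is anchored in the cell membrane, where it cuts collagen and activates the Mmp2 precursor. TIMPs are small secreted proteins that bind the active site of these enzymes and block it. In the periodontal ligament this system serves the continual turnover of collagen fibres.

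The control library held 369 cell barcodes with 5723299 unique molecular identifiers (UMIs, 1 per captured RNA molecule), and the OTM library held 1539 barcodes with 36010801 UMIs. After filtering, 348 control and 1412 OTM cells remained, with a median of 14877 and 19583 UMIs. The libraries shared 0 barcodes. Cells were clustered with all Mmp and Timp genes left out of the clustering genes, and clusters were named from marker lists that hold none of these genes. The periodontal fibroblast markers Aspn and Postn were among the leading genes of the cluster that held most stromal-like cells, cluster 9. Levels are given in CPM, the UMIs of a gene scaled by the UMI total of its class. Because 3' chemistry counts a molecule once whatever its length, levels of different genes are compared as captured molecules, and capture can differ between genes.

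The stromal-like class held 62 control cells (17.8%) and 537 OTM cells (38.0%). Its clusters were unevenly shared between the libraries. Cluster 9, fibroblast-like, had 28 control and 285 OTM cells. Cluster 10, led by the bone sialoprotein gene Ibsp and by Thbs4, had 12 and 42. Cluster 11, osteoblast lineage-like and led by the osteocalcin gene Bglap, had 22 and 56. Cluster 17, led by histone and cell-cycle genes, had 0 and 30, and cluster 18, led by Pdzrn4 and Ccn5, had 0 and 124. Most control stromal-like cells thus lay in clusters 9 and 11 and most OTM cells in clusters 9 and 18. Cluster 0, with 91 control and 117 OTM cells, also carried stromal markers but stayed unnamed. Col9a2, a chondrocyte marker, was among its 10 leading genes and no stromal marker was, and among the lists for kinds of stromal cell the dental pulp or odontoblast list scored highest in it (0.54). Its values are given beside those of the stromal-like class, because several members depended on where it was counted. The neutrophil-like class held 33 control and 148 OTM cells, and the osteoclast-like class 0 and 16 cells.

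The members lie on 7 chromosomes of the GRCm38 build in the GENCODE M21 annotation, and each span given here is a whole protein-coding gene. Mmp13 (ENSMUSG00000050578, chr9:7272514-7283331), Mmp3 (ENSMUSG00000043613, chr9:7445822-7455975) and Mmp8 (ENSMUSG00000005800, chr9:7558456-7568485) are neighbours on the plus strand within 296 kb. Mmp2 (ENSMUSG00000031740) is at chr8:92827291-92853420, Mmp9 (ENSMUSG00000017737) at chr2:164940780-164955850 and Mmp14 (ENSMUSG00000000957) at chr14:54431612-54445364, all on the plus strand. Timp1 (ENSMUSG00000001131) is at chrX:20870166-20874735 on the plus strand, where it overlaps Syn1 on the minus strand. Timp3 (ENSMUSG00000020044) is at chr10:86300372-86349506 on the plus strand and overlaps Syn3 on the minus strand. Timp2 (ENSMUSG00000017466) is at chr11:118301069-118355740 on the minus strand and overlaps Cep295nl on that same strand, so reads from the overlap could belong to either gene.

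The 4 promoter sequences below belong to the enzyme and the inhibitor with the most UMIs in OTM stromal-like cells (Mmp13 and Timp1), to the neighbour of Mmp13 that was seen only in the OTM library (Mmp3), and to an enzyme with a small difference (Mmp14). Each is the 120 bases before the gene's start, read 5′ to 3′ on the gene's own strand from RefSeq (GRCm38.p6), in which 7 of the 9 members were matched. Mmp2 and Mmp9 had no entry. Capitals mark the AP-1 motif TGANTCA and the RUNX motif TGTGGT, searched on both strands. AP-1 is the Fos and Jun transcription factor dimer, and Runx2 is the master regulator of osteoblast differentiation.
Mmp13 promoter, chr9:7272394-7272513, plus strand: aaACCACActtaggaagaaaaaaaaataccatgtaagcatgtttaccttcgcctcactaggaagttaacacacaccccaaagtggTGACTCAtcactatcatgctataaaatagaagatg
Mmp3 promoter, chr9:7445702-7445821, plus strand: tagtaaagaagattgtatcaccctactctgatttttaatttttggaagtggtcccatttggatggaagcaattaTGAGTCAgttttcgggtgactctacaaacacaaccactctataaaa
Mmp14 promoter, chr14:54431478-54431597, plus strand: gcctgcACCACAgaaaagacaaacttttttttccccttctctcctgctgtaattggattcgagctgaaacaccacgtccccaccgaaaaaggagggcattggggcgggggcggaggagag
Timp1 promoter, chrX:20870046-20870165, plus strand: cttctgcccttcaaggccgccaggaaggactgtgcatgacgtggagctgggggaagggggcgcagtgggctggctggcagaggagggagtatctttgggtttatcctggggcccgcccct
Of the 7 matched members, Mmp13 and Mmp3 held the AP-1 letters, 35 to 29 and 46 to 40 bases before the start. The motif reads the same on both strands and was counted as 1 site in each. Among 32851 RefSeq mouse promoters of the same length, 3.41% held it. The RUNX letters lay on the opposite strand in Mmp13, 118 to 113 bases before the start, and in Mmp14, 114 to 109 bases before it. They occurred in 6.72% of all promoters. The letters TATAAA, left in lower case, lay 16 to 11 bases before the Mmp13 start and 7 to 2 bases before the Mmp3 start, and occurred in 6.34% of promoters. A match describes the letters in this window and not a bound factor.

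Mmp13, the main interstitial collagenase of rodents, had 186 UMIs in control stromal-like cells and 64192 in OTM stromal-like cells. These sums correspond to 137 CPM (95% Poisson interval 118 to 158) and 4428 CPM (4394 to 4462). The OTM level was 32.4-fold higher, a log2 ratio of 5.02 with an interval of 4.81 to 5.23. Stromal-like cells held 95.5% of all Mmp13 UMIs of the OTM library. In the control library they held 17.4%, and cluster 0 held 78.1%. In cluster 0 the level was 416 CPM in control and 925 CPM in OTM, a log2 ratio of 1.15 (1.04 to 1.27). With cluster 0 counted as stromal, Mmp13 was 303 CPM in control and 3919 CPM in OTM, 12.9-fold higher. The direction was thus the same in each way of counting, and the size of the difference was not.

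Within the stromal-like clusters the Mmp13 levels were far apart. Cluster 9 went from 319 CPM in control to 3778 CPM in OTM, a log2 ratio of 3.57 (3.33 to 3.81). Cluster 10 had 58.7 CPM in control, from 8 UMIs that all lay in 1 cell, and 3283 CPM in OTM. Cluster 11, whose leading genes are those of bone-forming cells, had 35.9 and 59.2 CPM, a log2 ratio of 0.72 (0.10 to 1.39). Its control value rests on 27 UMIs in 1 cell. The clusters with OTM cells only had the highest level of all in cluster 18, 7781 CPM (7694 to 7869), and 4396 CPM in cluster 17. Cluster 18 alone carried 30397 Mmp13 UMIs. Mmp13 was among its leading genes although it had not been used to form it. A cluster that is found in 1 library only may reflect that library and not a type of cell. Without clusters 17 and 18 the stromal log2 ratio was 4.47.

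Detection per cell followed the same division. Mmp13 had a UMI in 15 of 62 control stromal-like cells (24.2%) and in 435 of 537 OTM cells (81.0%). With each cell thinned to 1500 UMIs, the shares were 18.6% and 66.7%. In OTM neutrophil-like cells, which should lack the gene, it was 9.46% of cells and 1.37% after thinning, at median depths of 5412.5 UMIs there and 23580 UMIs in stromal-like cells. The level of the median stromal-like cell was 0 CPM in control and 1550 CPM in OTM. In cluster 18 the median cell had 5332 CPM and 119 of 124 cells had a UMI. In cluster 11, 11 of 56 OTM cells had a UMI and the median was 0 CPM. The summed stromal markers of the class were 144798 CPM in control and 104228 CPM in OTM, with all 13 markers detected in each. Their part in the difference was not tested.

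**Figure D1:**
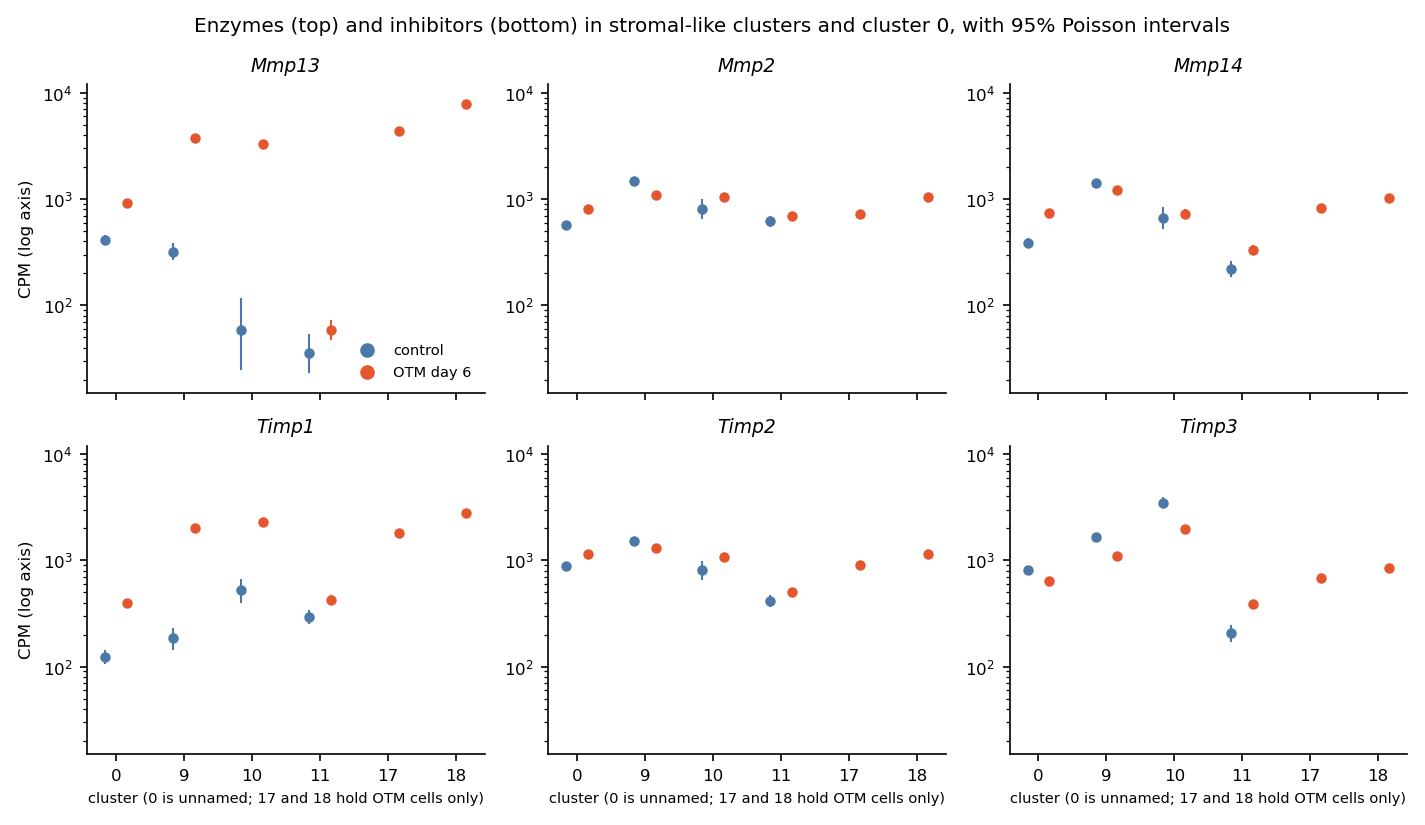
Levels of the members in the stromal-like clusters and cluster 0, in CPM on a log axis with 95% Poisson intervals (counting error only), 1 library per group. Mmp13 reaches 7781 CPM in cluster 18 and stays at 35.9 and 59.2 CPM in cluster 11.

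Timp1, a secreted inhibitor that responds to many inflammatory and growth signals, had 380 UMIs in control and 29375 UMIs in OTM stromal-like cells. The levels were 279 CPM (252 to 309) and 2026 CPM (2003 to 2050), a 7.26-fold higher OTM level with a log2 ratio of 2.86 (2.71 to 3.01). Stromal-like cells held 92.9% of its UMIs in the OTM library. In cluster 0 it was 123 CPM in control and 392 CPM in OTM, a log2 ratio of 1.68. With cluster 0 counted as stromal the levels were 186 and 1789 CPM, 9.62-fold higher. Like Mmp13 it was highest in cluster 18, at 2767 CPM. Cluster 9 had 184 CPM in control and 2028 CPM in OTM. Cluster 11 had 295 and 426 CPM, a log2 ratio of 0.53. Timp1 therefore had a smaller difference in cluster 11 than in clusters 9 and 10, where its log2 ratios were 3.46 and 2.14. It had 0 UMIs in control neutrophil-like cells and 10 in those of the OTM library.

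Timp2 and Timp3 differed much less. Timp2, a soluble inhibitor that also takes part with Mmp14 in activating the Mmp2 precursor, was 837 CPM in control and 1117 CPM in OTM stromal-like cells, a log2 ratio of 0.42 (0.33 to 0.50). In cluster 9 the order was the opposite, 1518 CPM in control and 1313 CPM in OTM, a log2 ratio of -0.21. Timp3, which stays bound to the matrix, was 1040 and 949 CPM in stromal-like cells, a log2 ratio of -0.13 (-0.21 to -0.05). With cluster 0 counted as stromal its log2 ratio was 0.005 (-0.05 to 0.06). It was lower in OTM cells of cluster 9 (1659 and 1087 CPM) and cluster 10 (3492 and 1987 CPM), and higher in OTM cells of cluster 11 (206 and 385 CPM). The direction of these 2 inhibitors in stroma therefore depended on the cluster. In control stromal-like cells Timp3 was the most abundant of the 3 inhibitors by captured molecules, and in OTM stromal-like cells Timp1 was.

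**Figure D2:**
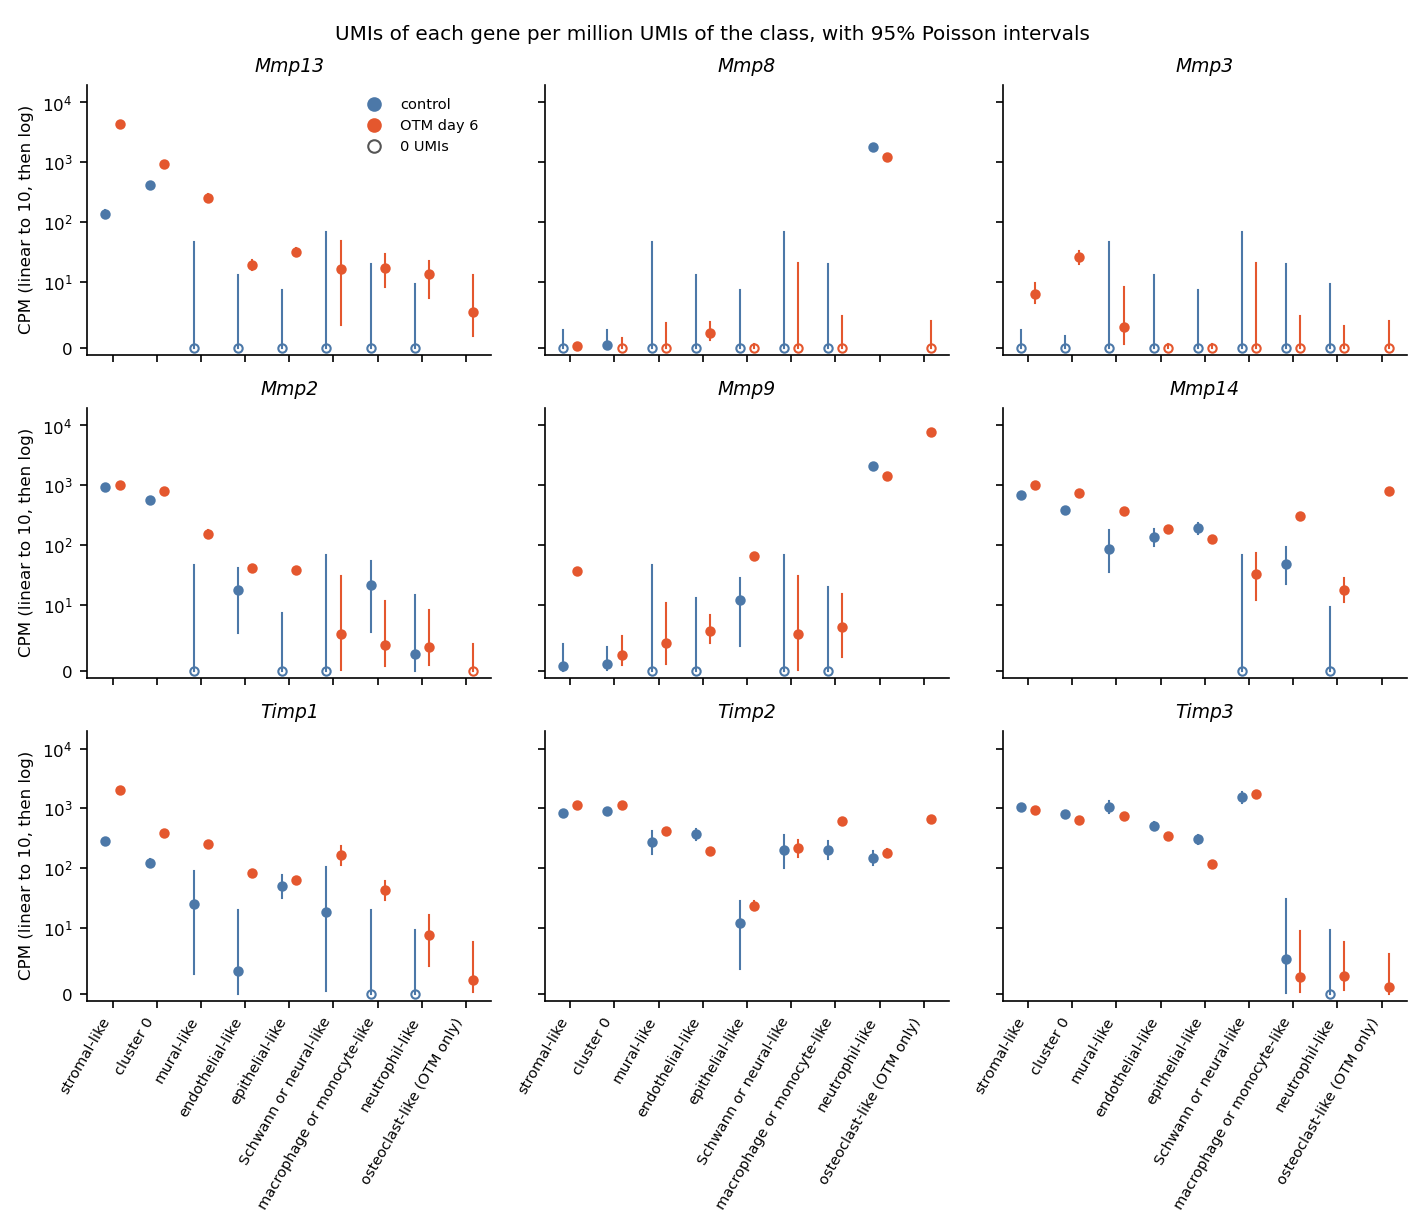
Level of each member in each cell class, in CPM on a log axis, with control and OTM day 6 as separate points and bars for 95% Poisson intervals (counting error only). Mmp8 and Mmp9 are highest in neutrophil-like or osteoclast-like cells, and the other members in stromal-like cells, cluster 0 or, for Timp3, Schwann-like cells.

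Mmp2, the gelatinase typical of fibroblasts, was 937 CPM in control and 993 CPM in OTM stromal-like cells, from 1276 and 14400 UMIs. The log2 ratio of 0.08 had an interval of 0.0018 to 0.17. In cluster 9 it was 1480 CPM in control and 1090 CPM in OTM, a log2 ratio of -0.44, and in cluster 0 it was 566 and 808 CPM, a log2 ratio of 0.51. The direction for Mmp2 thus differed between clusters. Mmp14, the membrane enzyme that activates Mmp2, was 679 CPM in control and 996 CPM in OTM stromal-like cells, a log2 ratio of 0.55 (0.46 to 0.65). It was lower in OTM cells of cluster 9 (1414 and 1207 CPM, log2 ratio -0.23). It was higher in OTM cells of cluster 11 (219 and 334 CPM) and of cluster 0 (390 and 740 CPM). Mmp2, Mmp14 and Timp2, the 3 parts of the activating complex on the cell surface, were all within 2-fold of the control level in the stromal-like class. With each library clustered alone the Mmp14 log2 ratio was 1.29 (1.18 to 1.41), past 2-fold, while those of Mmp2 and Timp2 were 0.59 and 0.64.

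Mmp3 was counted in OTM cells only, 0 UMIs in control and 186 in OTM. Stromal-like cells held 119 of these in 19 cells, with 42 UMIs in the highest cell. The level was 8.21 CPM (6.80 to 9.82), at least 3.73-fold higher than the floor of 3 UMIs over the control class, which is 2.20 CPM. Cluster 18 had 64 UMIs and cluster 9 had 54. Cluster 0 had 63 UMIs, of which 62 came from 1 cell, so its level of 25.6 CPM describes that cell. With 0 UMIs among control stromal-like cells, a control level near or below the floor of 2.20 CPM could not be seen at this depth.

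Mmp9, the second gelatinase, had different main sources in the 2 libraries. Neutrophil-like cells held 98.3% of its 813 control UMIs. In the OTM library, with 9896 UMIs, the 16 osteoclast-like cells held 71.7%, neutrophil-like cells 16.3%, stromal-like cells 5.3% and epithelial-like cells 3.6%. The osteoclast-like level was 7772 CPM (7592 to 7955), from 7099 UMIs. Which cells were called osteoclast-like changed this level, from 4571 CPM (23 cells) with a stricter cell filter to 8263 CPM (14 cells) with each library clustered alone, and it was 10470 CPM when scaled without the 50 most abundant genes. Single osteoclast-like cells held 1 to 1800 Mmp9 UMIs, and their levels ran from 42.3 to 17653 CPM with a median of 5816 CPM. No control cell was classed as osteoclast-like, so this level has no control value. Naming each cell by its own scores placed 5 control cells in the class. The osteoclast-like cells had 10 of 11 osteoclast markers, summing to 43373 CPM, with Calcr, the calcitonin receptor gene, at 0. Their summed neutrophil markers were 70.1 CPM, with Csf3r, Ly6g, Il1r2, Ltf, Hdc and Stfa2l1 at 0.

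The other members in osteoclast-like cells were few. Mmp14 was 793 CPM and Timp2 was 667 CPM there, from 724 and 609 UMIs. Mmp13 had 5 UMIs, Timp1 had 2 and Timp3 had 1. Mmp2, Mmp3 and Mmp8 had 0 UMIs, where the floor of 3 UMIs corresponds to 3.28 CPM. Their summed stromal markers were 78.8 CPM. Osteoclast-like cells thus carried 1 secreted enzyme, 1 membrane enzyme and 1 inhibitor of this family at levels far above the rest. Timp2 was the only TIMP there above the floor of 3 UMIs.

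In neutrophil-like cells Mmp9 had 799 UMIs in control and 1614 UMIs in OTM. The levels were 2083 CPM (1941 to 2232) and 1445 CPM (1376 to 1517), a log2 ratio of -0.53 (-0.65 to -0.40). Mmp8, the collagenase stored in neutrophil granules, had 685 and 1366 UMIs, or 1786 and 1223 CPM, a log2 ratio of -0.55 (-0.68 to -0.41). Neutrophil-like cells held 96.8% of control and 95.3% of OTM Mmp8 UMIs. Both enzymes were lower per UMI in the OTM class, and neither differed by 2-fold. The class consisted of cluster 6, led by the granule genes Ltf, Ngp and Lcn2 with Retnlg, and cluster 13, led by Acod1 and the cytokine gene Il1b. Cluster 6 held 21 of 33 control cells and cluster 13 held 97 of 148 OTM cells.

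Within these clusters the differences were smaller. In cluster 6 Mmp8 was 2040 CPM in control and 1879 CPM in OTM, a log2 ratio of -0.12 (-0.26 to 0.02), and Mmp9 was 2275 and 2016 CPM, a log2 ratio of -0.17 (-0.31 to -0.04). In cluster 13 Mmp8 was 430 and 468 CPM, with a log2 ratio of 0.12 (-0.46 to 0.77), and Mmp9 was 1057 and 788 CPM, with a log2 ratio of -0.42 (-0.81 to -0.02). The levels of these genes were thus further apart between the clusters than between the libraries. Mmp8 was detected in 29 of 33 control and 97 of 148 OTM neutrophil-like cells, and Mmp9 in 33 of 33 and 134 of 148. After thinning, the shares were 72.7% and 54.1% for Mmp8 and 81.8% and 77.4% for Mmp9. Timp2 was the only inhibitor with more than 10 UMIs in these cells, at 149 CPM in control and 180 CPM in OTM, a log2 ratio of 0.28 (-0.15 to 0.73). In cluster 13, with 5 control UMIs, its log2 ratio was 1.08 (-0.19 to 2.74). Summed stromal markers in the class were 138 CPM in control and 432 CPM in OTM, and summed endothelial markers 15.6 and 535 CPM. Their part in these values was not tested.

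**Figure D3:**
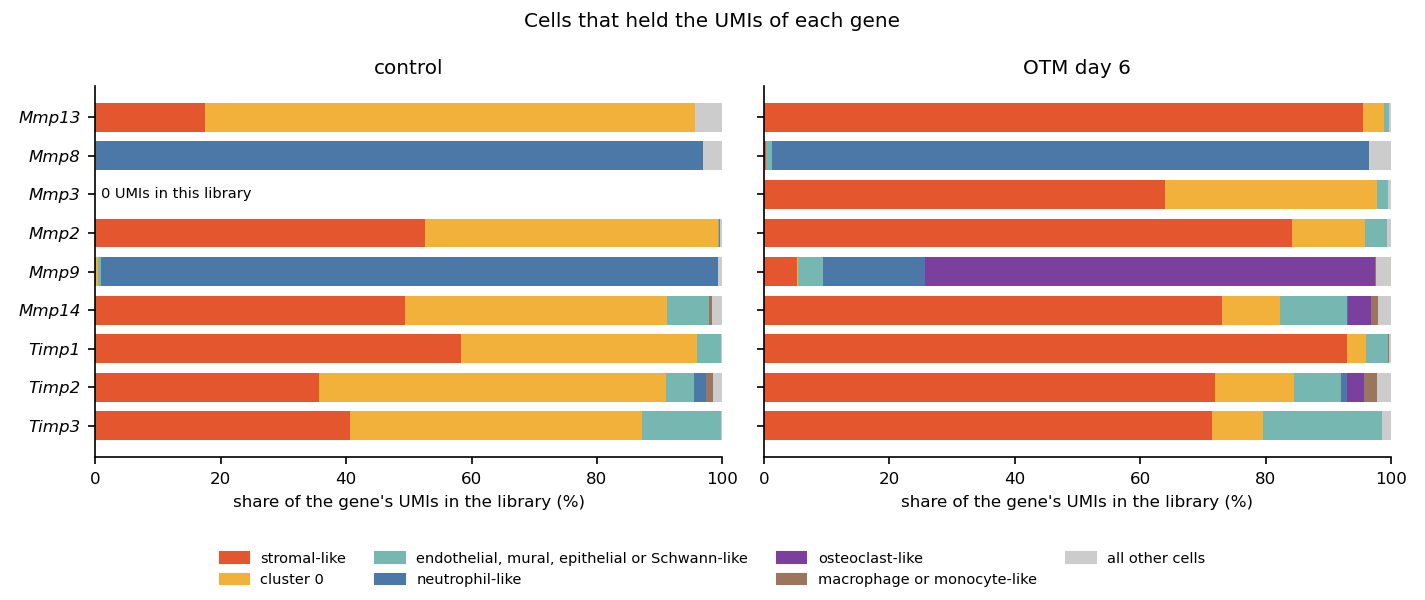
Percentage of each member's UMIs carried by each class in the control and the OTM day 6 library, 1 library each. In control, cluster 0 holds 78.1% of Mmp13 and neutrophil-like cells 98.3% of Mmp9, and in OTM stromal-like cells hold 95.5% of Mmp13 and osteoclast-like cells 71.7% of Mmp9.

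Stromal-like cells also had Mmp9 in the OTM library, 529 UMIs in 92 of 537 cells against 1 UMI in control. The levels were 36.5 CPM and 0.734 CPM, a log2 ratio of 5.64 with an interval of 3.15 to 10.9. The highest cell had 80 Mmp9 UMIs together with 2050 UMIs of the collagen gene Col1a1 and 1 UMI of the osteoclast gene Acp5. Stromal-like cells had 168 Mmp9 UMIs per 100 Acp5 UMIs, and osteoclast-like cells 40.1. They had 5 Mmp8 UMIs beside 529 of Mmp9, where neutrophil-like cells had 1366 beside 1614. Cluster 18 had 55.3 CPM of Mmp9 and cluster 9 had 43.4 CPM, while clusters 10 and 11 had 2.58 and 1.13 CPM. Summed osteoclast markers in the stromal-like class were 791 CPM in control and 910 CPM in OTM, and summed neutrophil markers 97.6 and 121 CPM. Most of the osteoclast sum was Ctsk, at 678 and 751 CPM, and Acp5 was 21.7 CPM in OTM.

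The blood vessel and nerve classes carried mainly inhibitors. In endothelial-like cells (14 control, 203 OTM) Timp2 was 366 CPM in control and 195 CPM in OTM, a log2 ratio of -0.91 (-1.20 to -0.61), and Timp3 was 507 and 339 CPM, a log2 ratio of -0.58. Timp1 had 1 control UMI and 484 OTM UMIs there, 3.52 and 84.0 CPM, a log2 ratio of 4.57 (2.09 to 9.88). With other cell filters or another way of naming cells the order turned, to a log2 ratio of -0.50 without a filter. Mmp14 was 137 and 187 CPM, a log2 ratio of 0.45 (-0.01 to 0.95). With each library clustered alone, which placed 65 control cells in the class, the log2 ratios were -1.75 for Mmp14, -2.29 for Timp2 and -1.61 for Timp3. In the 4 control and 15 OTM Schwann-like cells Timp3 was the leading member, at 1530 CPM (1219 to 1897) and 1754 CPM (1567 to 1958), intervals that overlap. Mural-like cells, the muscle cells and pericytes of vessel walls (6 control, 35 OTM), had Timp3 at 1057 and 733 CPM. They had Mmp14 at 87.0 and 366 CPM, a log2 ratio of 2.07. Mmp13 had 0 control and 245 OTM UMIs in mural-like cells, but 170 lay in 1 cell that also held 1567 Col1a1 UMIs. Summed stromal markers went from 4550 to 20672 CPM in mural-like cells and from 2505 to 4327 CPM in endothelial-like cells. Their part in the mural and endothelial values was not tested.

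In macrophage or monocyte-like cells Mmp14 had 9 control and 227 OTM UMIs, 48.2 CPM (22.1 to 91.5) and 300 CPM (262 to 341), a log2 ratio of 2.64 (1.69 to 3.78). It was smaller under other choices of cells, 0.74 at a finer clustering resolution, 0.97 with a stricter cell filter, 1.61 with per-cell naming and 1.67 without a filter. Timp2 was 204 CPM in control and 622 CPM in OTM, a log2 ratio of 1.61 (1.13 to 2.13). The class held 19 control cells, 16 of them in cluster m1, and 39 OTM cells, 27 of them in cluster m4. In cluster m1 alone the Mmp14 log2 ratio was 0.05, from 8 and 5 UMIs, and that of Timp2 was 0.89 (0.18 to 1.62). In cluster m4 it was 3.1 (0.60 to 8.41) for Mmp14, with 1 control UMI, and 1.74 (0.51 to 3.37) for Timp2, with 5. Summed osteoclast markers in the class were 246 CPM in control and 1315 CPM in OTM, and their part in these values was not tested. In epithelial-like cells (20 control, 126 OTM) Timp3 was 304 and 118 CPM, with a log2 ratio of -1.37 (-1.64 to -1.08), and Mmp14 was 190 and 124 CPM, a log2 ratio of -0.61. At the finer resolution the Mmp14 value was -0.20, and as a mean over cells -1.22. Of the 361 OTM UMIs of Mmp9 in epithelial-like cells, 267 lay in 1 cell.

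The balance of enzymes and inhibitors was taken as the UMIs of the 6 MMP genes per UMI of the 3 TIMP genes, a ratio of captured transcripts and not of active enzyme. In stromal-like cells it was 0.813 (0.770 to 0.859) in control and 1.58 (1.56 to 1.60) in OTM, a log2 difference of 0.96 (0.88 to 1.04). Inhibitor transcripts were the larger number in control and enzyme transcripts in OTM. Without Mmp13 the order turned, from 0.750 in control to 0.497 in OTM, a log2 difference of -0.59 (-0.68 to -0.51). Timp1, 7.26-fold higher in OTM, stayed among the inhibitors in this ratio. The 5 other enzymes had 2202 and 29489 UMIs, beside 2556 and 29945 UMIs of Timp2 and Timp3. With Mmp13 kept and Timp1 left out, the ratio was 0.934 in control and 3.13 in OTM. Of the 6 enzymes, Mmp13 was the one that placed the OTM stromal ratio to all 3 TIMP genes above 1. Cluster 0 had 0.757 and 1.14, and without Mmp13 0.528 and 0.720, so there the remaining enzymes were also higher against the inhibitors in OTM. In cluster 9 the ratio was 0.957 in control and 1.38 in OTM, and without Mmp13 0.862 and 0.531. In cluster 11 it was 0.954 and 0.827, a log2 difference of -0.21. Cluster 18 had 2.09 enzyme UMIs per inhibitor UMI and cluster 17 had 1.76.

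The balance in the other classes lay on either side of the stromal values. Neutrophil-like cells had 26.1 enzyme UMIs per inhibitor UMI in control and 14.1 in OTM, and osteoclast-like cells 12.8. In neutrophil cluster 6 it was 26.8 and 20.5, and in cluster 13 it was 18.2 and 6.78, with 5 control UMIs of Timp2. Endothelial-like cells were at 0.177 and 0.414, and macrophage or monocyte-like cells at 0.333 and 0.491. Over all cells of a library the ratio was 0.940 in control and 1.58 in OTM. Of single pairs, Mmp2 per Timp2 was 0.760 and 0.759 over all cells, but classes differed in direction. It was 1.12 and 0.889 in the stromal-like class and 0.975 and 0.831 in cluster 9. In cluster 0 it was 0.640 and 0.700, and in endothelial-like cells 0.0481 and 0.212, with 5 control UMIs of Mmp2. Mmp13 per Timp1 was 0.489 and 2.19 in the stromal-like class, but 1.74 and 1.86 in cluster 9 and 3.39 and 2.36 in cluster 0. Mmp13 and Timp1 thus differed between the libraries by similar factors within cluster 9.

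**Figure D4:**
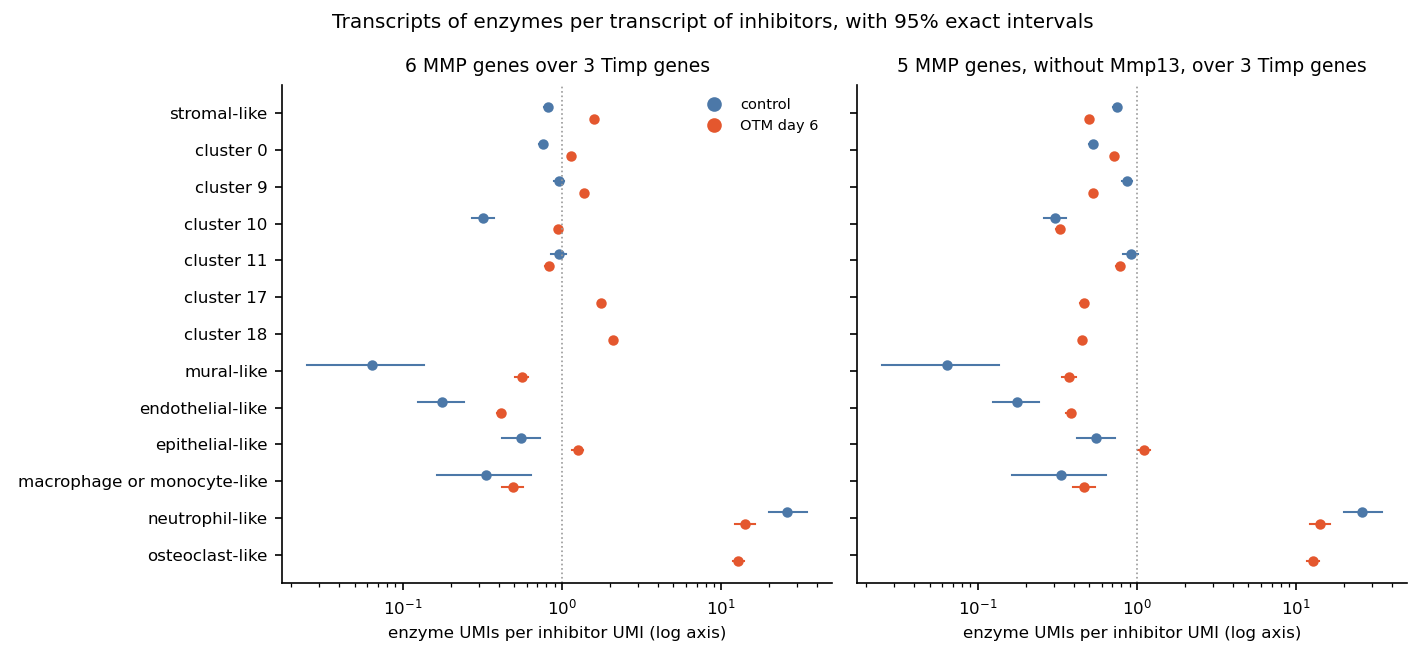
UMIs of the 6 MMP genes per UMI of the 3 TIMP genes in each class and stromal cluster, on a log axis with 95% intervals for counting error, for the control and the OTM day 6 library. Stromal-like cells move from 0.813 to 1.58, and neutrophil-like cells (26.1 and 14.1) and osteoclast-like cells (12.8) lie far above 1.

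Mmp13 and Timp1 were detected together in some cells and singly in others. After thinning to 1500 UMIs, both Mmp13 and Timp1 were detected in 2 of 59 control and 244 of 526 OTM stromal-like cells (46.4%). Mmp13 alone was detected in 9 control and 107 OTM cells, and Timp1 alone in 14 and 74. In cluster 18 the number was 98 of 123 (79.7%), in OTM cells of cluster 9 it was 116 of 276, and in OTM cells of cluster 11 it was 0 of 55. Across the 526 OTM stromal-like cells with at least 1500 UMIs, the Spearman correlation of the Mmp13 and Timp1 levels was 0.49, and 0.40 after thinning. Within thinned cells of cluster 9 it was 0.31 (n = 276) and within cluster 18 also 0.31 (n = 123). These cells share 1 library, so the correlation describes that library. For Mmp2 with Timp2 and for Mmp14 with Timp2 the correlations were 0.47 and 0.49 before thinning and 0.13 for each pair after it.

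**Figure D5:**
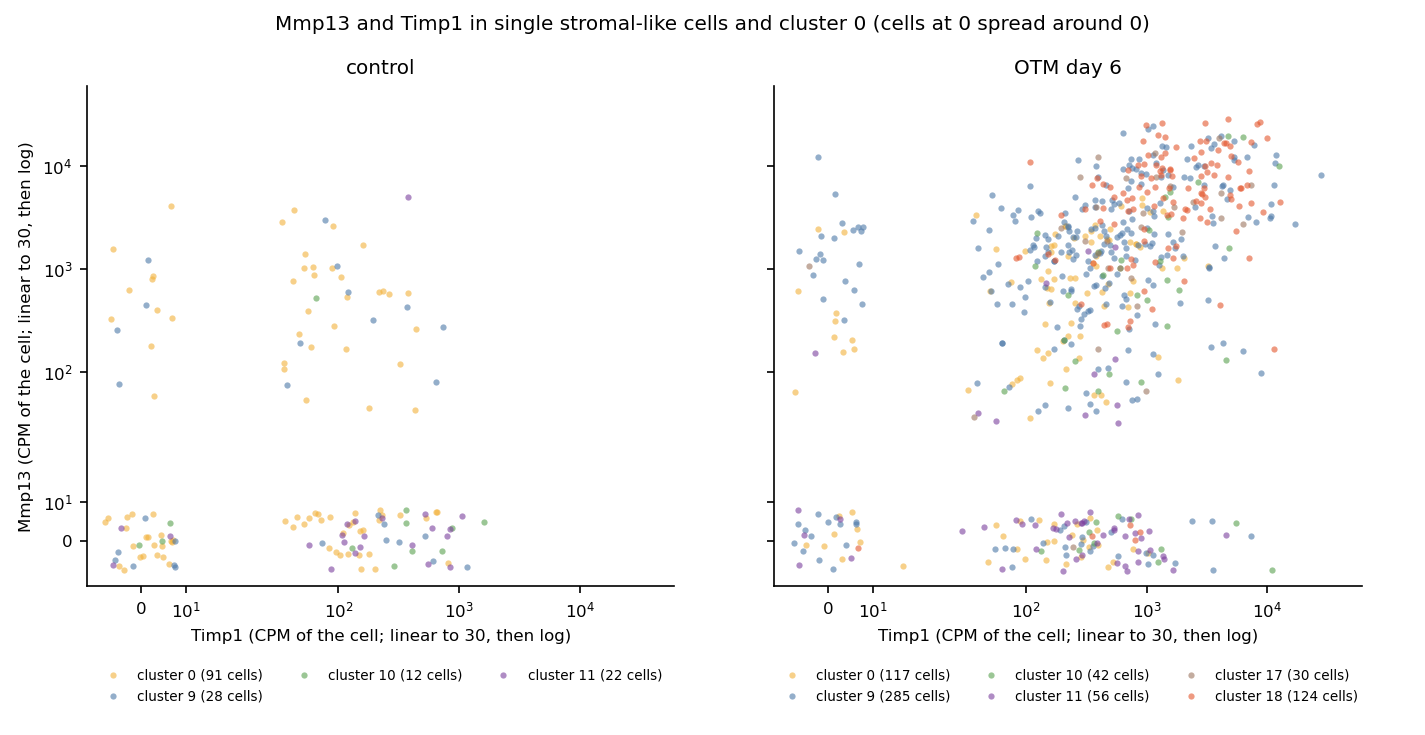
Mmp13 against Timp1 in single stromal-like cells and cells of cluster 0, each as CPM of the cell (linear to 30, then logarithmic; cells at 0 are spread around 0 for display), coloured by cluster, with control left and OTM day 6 right. OTM cells of cluster 18 fill the upper right, and those of cluster 11 lie mostly at an Mmp13 level of 0.

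A gene was counted as 2-fold different between the libraries when at least 10 UMIs would be expected in the smaller class sum at equal levels. Of the 8 members that met this in stromal-like cells, 4 were at least 2-fold higher in OTM (Mmp3, Mmp9, Mmp13 and Timp1) and 0 were lower. Among all 9656 genes compared in that class, 7.64% were 2-fold higher and 3.0% lower. The median log2 ratio was 1.23 for the members and 0.13 for all genes. Sums below the floor of 3 UMIs were set to it here. Mmp3, with 0 control UMIs, and Mmp9, with 1, thus entered at 1.90 and 4.05. Both met the UMI requirement through their OTM counts, and the members' median depends on the floored value of Mmp3. In cluster 0, 3 of 7 members were 2-fold higher (Mmp3, Mmp13 and Timp1) and 0 lower, beside 2.76% and 3.88% of all genes. Mmp3 had 0 control UMIs there, and nearly all of its OTM UMIs came from a single cell, as given above. With cluster 0 pooled with the stromal-like class, 4 of 8 members were higher (Mmp3, Mmp9, Mmp13 and Timp1) and 0 lower, beside 4.99% and 4.77%. In cluster 9, 3 of 7 were higher (Mmp9, Mmp13 and Timp1), beside 5.98% higher and 1.81% lower of all genes. Mmp9 had 1 control UMI there. In cluster 10, 2 of 6 were higher, beside 10.8% and 5.25%, and in cluster 11, 0 of 6 were 2-fold different, beside 3.72% and 1.71%.

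Outside the stroma, 0 of 3 members compared in neutrophil-like cells were 2-fold different, beside 13.8% of genes higher and 1.89% lower. In neutrophil cluster 6 it was also 0 of 3, beside 8.69% and 2.09%. In cluster 13, 1 of 3 was higher (Timp2, with 5 control UMIs), beside 10.4% and 4.54%. In macrophage or monocyte-like cells the 2 members compared, Mmp14 and Timp2, were both higher, where 19.7% of genes were higher and 11.5% lower. In endothelial-like cells 2 of 5 were higher, beside 6.37% and 4.12%. These were Mmp2, with 5 control UMIs and a log2 ratio of 1.23 (-0.014 to 2.86), and Timp1, with the 1 control UMI given above, so the count rests on few molecules. In epithelial-like cells 3 of 6 were higher (Mmp2, Mmp9 and Mmp13) and 1 lower (Timp3), beside 7.24% and 5.60%. Mmp2 and Mmp13 had 0 control UMIs there and Mmp9 had 5. Of the OTM UMIs, 267 of 361 for Mmp9 lay in 1 cell. For Mmp13, 78 of 172 lay in 1 cell that also held 1257 Col1a1 UMIs. Summed stromal markers in epithelial-like cells were 1487 CPM in control and 5107 CPM in OTM, and their part in the Mmp2 and Mmp13 values was not tested.

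Of the other metalloproteinase genes 16 were found, and 4 could be compared in stromal-like cells, with Mmp11 and Mmp19 2-fold higher and Mmp16 lower. Among all genes compared in this class, 7.64% were 2-fold higher and 3.0% lower. Mmp19 was 11.7 CPM in control and 72.7 CPM in OTM, Mmp16, another membrane-type enzyme, was 183 and 56.9 CPM, and Mmp23 was 164 and 215 CPM. Of 9 other inhibitor genes compared, Serpine2, Slpi and Tfpi2 were 2-fold higher and Reck lower. Named by their level, the collagen chaperone Serpinh1 was 2594 CPM in control and 2905 CPM in OTM, Serpinf1 was 2493 and 1830 CPM, and Pcolce, the enhancer of procollagen processing, was 1210 and 1296 CPM. Chosen after their values were seen, Serpine2 and Slpi, both inhibitors of serine proteases, were 36.7 and 414 CPM and 62.4 and 707 CPM. Reck, a membrane-anchored inhibitor of metalloproteinases, was 66.1 and 29.6 CPM.

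Of 11 activator and uptake genes compared in stromal-like cells, Plau and Plaur, the urokinase gene and its receptor, were 2-fold higher and the proprotein convertase Pcsk6 lower. Beside this list and the 2 that follow, 7.64% of all genes in the class were higher and 3.0% lower. By level, Bsg, which induces metalloproteinases in neighbouring cells, was 483 CPM in control and 585 CPM in OTM. Lrp1, an endocytic receptor that clears them, was 319 and 515 CPM, and Pcsk5 was 267 and 140 CPM. Of 13 ADAM and ADAMTS genes, 3 were 2-fold higher (Adam9, Adam19 and Adamts4). The procollagen peptidase gene Adamts2 was 276 and 341 CPM, the aggrecanase gene Adamts5 159 and 186 CPM, and Adamts1 164 and 167 CPM. Of 8 cathepsin genes, Ctsc and Ctsh were higher. Among the most abundant cathepsins, Ctsb was 690 and 984 CPM, Ctsk 678 and 751 CPM, and Ctsl 540 and 717 CPM. In neutrophil-like cells Slpi was 1551 and 2371 CPM, and Lcn2, whose protein binds Mmp9, was 15524 and 9669 CPM. Cystatin C (Cst3) was 2523 CPM in osteoclast-like cells.

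Of 13 matrix substrate genes compared in stromal-like cells, 6 were 2-fold higher (Col12a1, Col4a1, Col4a2, Fn1, Vcan and Fbn1) and 0 lower. Among all genes 7.64% were higher and 3.0% lower. The list's median log2 ratio was 0.89, beside 0.13 for all genes. The 3 most abundant went in different directions. Col1a1 was 58752 CPM in control and 33767 CPM in OTM, a log2 ratio of -0.80, and Col1a2 was 35937 and 22195 CPM, a log2 ratio of -0.70. Col3a1 was 8253 and 15334 CPM, a log2 ratio of 0.89. Type I collagen transcripts were therefore lower and type III higher in the OTM class as a whole. Within its clusters the list's median log2 ratio was smaller, 0.35 in cluster 9, 0.56 in cluster 10 and -0.05 in cluster 11. In these clusters 4 of 12, 2 of 9 and 1 of 11 genes were 2-fold higher, and 0 were lower. Beside them, 5.98%, 10.8% and 3.72% of all genes were higher, and 1.81%, 5.25% and 1.71% lower. The part of the uneven cluster mix in the class values was not tested.

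Of 13 genes for regulators of Mmp13 and Mmp9 transcription, 0 were 2-fold different in stromal-like cells, and their median log2 ratio was 0.10. Of all genes there, 7.64% were higher and 3.0% lower. The AP-1 genes Fos (2412 and 2327 CPM), Junb (1404 and 1156 CPM) and Jun (1153 and 1268 CPM) were the 3 most abundant. Runx2, chosen after its value was seen because its motif was searched above, was 735 CPM in control and 670 CPM in OTM. In cluster 9 alone 4 of these 13 genes were 2-fold higher (Fosl1, Ets1, Nfkb1 and Nfatc1), beside 5.98% of all genes. In neutrophil-like cells 2 of the 13 were higher (Nfkb1 and Cebpb), a share near the 13.8% of all genes. In macrophage or monocyte-like cells 9 could be compared. Of these, Nfatc1 was higher and 6 AP-1 genes (Fos, Fosb, Fosl2, Jun, Junb and Jund) were lower. In that class 19.7% of all genes were higher and 11.5% lower. Its control cells lay mainly in cluster m1 (16 of 19) and its OTM cells in cluster m4 (27 of 39). The part of this mix in the AP-1 values was not tested. In endothelial-like cells 2 of 12 were lower (Fos and Fosb), beside 4.12% of all genes.

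The genes most like each member were ranked by the Pearson correlation of log2(CPM + 10) over 17 class and library profiles of at least 20 cells, among 9028 genes. These profiles share 2 libraries, and the values are descriptions. Mmp13 was most like the type VI collagen genes Col6a2 (0.946) and Col6a1 (0.942) and Thbs2 (0.938). Mmp2 was closest to Kdelr3 (0.987), Mfap2 (0.986) and Rcn3 (0.983), and Mmp14 to Dnajc3 (0.952), Sec31a (0.934) and Itm2c (0.930). Mmp8 was closest to the neutrophil genes Csf3r (0.980), Slfn1 (0.976) and Cd177 (0.974). Mmp9 reached only 0.906 with Nfe2, 0.894 with Mxd1 and 0.875 with the chemokine receptor gene Cxcr2. The osteoclast-like class, with 16 cells, was too small for a profile, so its Mmp9 level did not enter. That class held 71.7% of the Mmp9 UMIs of the OTM library. Timp1 was closest to Fkbp10 (0.935), Maged2 (0.925) and Maged1 (0.924), Timp2 to Cd63 (0.913), Lhfpl2 (0.874) and Gfpt1 (0.874), and Timp3 to Fstl1 (0.968), Ppic (0.968) and Yap1 (0.965). Mmp3 did not reach the level needed for this ranking in any profile.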

How the data were processed

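The deposited values were whole-number UMI counts per gene and cell, which per the file headers the authors made with Cell Ranger 7.0.1. Seurat and the builds mm10 and GRCm38 are named in the submitters' processing notes. Cell filters before deposit are not given in the sources used here. Cells with at least 200 genes and at most 20% mitochondrial UMIs were kept. Scrublet called 2 control and 8 OTM doublets, which were kept. Cells of both libraries were clustered together with scanpy 1.11.5 (2000 variable genes without Mmp and Timp genes, 30 components, 15 neighbours, Leiden resolution 1, seed 0), and myeloid and T or mast cells again at resolution 0.8. A cluster was named for its highest-scoring marker list, with a score of at least 0.5 and 3 detected markers, unless another class had more markers among its 10 leading genes.

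UMIs were summed per class. Sums have exact Poisson intervals, ratios exact conditional binomial intervals and differences of balance approximate (Woolf) intervals, all at 95%. They cover counting error only, and not variation between mice or between cells. Ratios against 0 use a floor of 3 UMIs over the class, and a ratio with 1 to 3 UMIs is printed with its interval. With 1 library per group no p-value was computed. The summing and interval code was tested on simulated data.

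The members, gene lists and marker lists were chosen with earlier results of these data known. Named were all members, the 3 most abundant stromal genes of each list (for inhibitors and activators also the 2 most abundant in neutrophil-like and osteoclast-like cells) and each member's 3 most similar genes. Of the 32285 gene identifiers, 32235 were found in GENCODE M21. Alternatives were other filters, doublet removal, each library clustered alone, per-cell naming, Mmp and Timp genes kept in clustering, resolution 2, the mean over cells, scaling without the 50 most abundant genes, and single clusters.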

Additional observations from a re-analysis of the deposited data

Results flagged for a closer look

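For 3 members, 2 classes moved in opposite directions between control and OTM, with intervals for counting error that did not overlap. None of these differences was tested, since each group is 1 library. The log2 ratio of Mmp9 was 5.64 (3.15 to 10.9) in stromal-like cells, with 1 control UMI, and -0.53 in neutrophil-like cells, 6.16 apart. Mmp14 had a log2 ratio of 2.64 in macrophage or monocyte-like cells and -0.61 in epithelial-like cells, 3.25 apart. Other choices of cells brought the first of these down to 0.74 (finer resolution), 0.97 (stricter filter), 1.61 (per-cell naming) and 1.67 (no filter), and the finer resolution brought the epithelial-like value to -0.20. In macrophage or monocyte-like cells Timp2 had a log2 ratio of 1.61 and in endothelial-like cells -0.91, 2.52 apart. The macrophage or monocyte-like class lay mainly in cluster m1 in control and m4 in OTM.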

How the results depend on the processing

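No paired analysis was possible because each group is 1 library. The 4 main values (Mmp13, Timp1 and the balance in stromal-like cells, and Mmp9 in neutrophil-like cells) kept their direction in all 46 of their alternatives, and moved beyond counting error in 27. Of 182 alternatives of 18 other values, 165 kept their sign and 17 changed it. Osteoclast-like Mmp9 is a level and cannot change sign, so its 9 alternatives are among the 165 by construction. The settings that count cluster 0 as stromal, take single clusters or leave out clusters 17 and 18 were chosen after seeing the data. The stromal Mmp13 log2 ratio (5.02) was 3.68 without a filter, 3.70 with a stricter one, 3.70 without doublets, 5.64 with each library clustered alone, 4.65 with per-cell naming, 3.70 with Mmp and Timp genes kept or at resolution 2, 4.10 as a mean over cells, 3.69 with cluster 0, 3.57 in cluster 9 and 4.47 without clusters 17 and 18. In the same order Timp1 (2.86) was 3.35, 3.32, 3.27, 3.31, 3.27, 3.27, 2.44, 3.27, 3.46 and 2.65. The main stromal-like class held 62 control and 537 OTM cells. It held 153 and 653 without doublets, with Mmp and Timp genes kept and at resolution 2. Without a filter it held 151 and 646, and with the stricter one 143 and 642. Counting cluster 0 as stromal gave 153 and 654 cells, with nearly the same Mmp13 and Timp1 values. These settings should thus not be read as separate alternatives. The balance difference (0.96) was 1.05 with libraries clustered alone, 0.53 in cluster 9 and 0.67 without clusters 17 and 18. Neutrophil-like Mmp9 (-0.53) was -0.74 without the 50 most abundant genes and -0.17 in cluster 6. The values that changed sign were as follows. Stromal Mmp2 was -0.042 as a mean over cells, -0.0084 without the 50 most abundant genes and -0.44 in cluster 9, where Mmp14 was -0.23 and Timp2 -0.21. Stromal Timp3 was 0.00066 without doublets, 0.59 with libraries alone, 0.22 with per-cell naming, 0.00097 with Mmp and Timp genes kept or at resolution 2, and 0.0052 with cluster 0. Mmp8 was 0.12 in neutrophil cluster 13. Endothelial Timp1, with 1 control UMI, was -0.50 without a filter, -0.51 with the stricter one, -1.34 with libraries alone and -0.67 with per-cell naming, and endothelial Mmp14 (0.45) was -1.75 with libraries alone. Osteoclast-like Mmp9 moved in 9 of 9 alternatives, between 4571 and 10470 CPM. The cause of these changes was not tested. Under 0 control UMIs, levels below 3 UMIs per class cannot be seen.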
